A study of Mus musculus with 6 samples.

Results

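The genes described here encode 10 surface or secreted proteins through which a tumor cell can restrain, or in some cases stimulate, immune cells: Cd274, Pdcd1lg2, Cd276, Cd47, Cd80, Pvr, Nectin2, Lgals9, Tnfrsf14 and Cd200. They form a list of names with no threshold on a measured value, and all 10 were matched by symbol to the 53801 genes listed for each library. Poly(A)-selected RNA was sequenced from CT26, a colon carcinoma line of BALB/c mice, in 6 libraries. The parental group (2 libraries, A and B) was, per the study's methods, bulk CT26 recovered from tumors, and lines B04 (2 libraries) and B64 (2 libraries) were each expanded from 1 cell plated from a dissociated tumor. Per the same methods, the bulk parental cells and the clones alike came from CT26 cells transduced with a retroviral barcode library and selected with puromycin. The cultures themselves received no treatment per the labels, but the study describes B04 and B64 as resistant to immune checkpoint blockade (ICB), the antibody blockade of PD-1 and CTLA-4, and states that the clones were isolated after ICB. Differences that were there before ICB and differences that arose under it therefore cannot be told apart. Each resistant line is therefore 1 clone, and a difference from the parental group is a difference between a clone and a mixed population. The titles call the samples tumors, whereas the growth protocol and the methods describe cells kept in RPMI medium.

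Checkpoint ligands work by engaging inhibitory receptors on lymphocytes and myeloid cells. PD-L1 (Cd274) and PD-L2 (Pdcd1lg2) bind PD-1 on T cells, and CD80 binds CD28 and CTLA-4. PVR (CD155) and Nectin-2 (CD112) both bind the inhibitory receptor TIGIT and the activating receptor CD226, while CD96 binds PVR and PVRIG binds Nectin-2. CD47 tells phagocytes to spare a cell through SIRPα, galectin-9 (Lgals9) binds TIM-3, HVEM (Tnfrsf14) binds BTLA and CD160, CD200 binds CD200R1 on myeloid cells, and B7-H3 (Cd276) is a B7 family protein abundant on many carcinomas. Interferon-γ is the classical inducer of PD-L1 in tumor cells, acting through JAK1, JAK2 and IRF1.

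The sequences just before the start sites of 4 of these genes are shown because interferon response motifs are the usual way to describe control of PD-L1, and because 3 of the 4 genes differed between lines. The windows are the 250 bases before the RefSeq start site, on GRCm38.p6 and read 5′ to 3′ on the gene's own strand. Capitals mark matches, on either strand, to the gamma-activated site TTCNNNGAA, the interferon regulatory factor core AANNGAAA or the GC box GGGCGG of Sp1. The windows lie at chr19:29367188-29367437 on the plus strand for Cd274, and on the minus strand at chr11:78984925-78985174 for Lgals9, chr7:19749574-19749823 for Nectin2 and chr9:58555034-58555283 for Cd276.
Cd274: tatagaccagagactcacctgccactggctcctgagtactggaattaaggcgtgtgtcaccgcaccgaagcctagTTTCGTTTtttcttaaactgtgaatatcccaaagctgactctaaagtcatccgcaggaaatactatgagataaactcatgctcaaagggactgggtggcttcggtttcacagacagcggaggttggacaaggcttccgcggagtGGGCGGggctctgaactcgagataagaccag
Lgals9: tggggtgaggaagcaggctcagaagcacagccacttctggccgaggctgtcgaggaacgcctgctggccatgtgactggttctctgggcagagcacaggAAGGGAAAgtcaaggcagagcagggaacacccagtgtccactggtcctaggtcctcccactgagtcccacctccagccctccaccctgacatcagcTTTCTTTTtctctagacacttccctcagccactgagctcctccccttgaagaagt
Nectin2: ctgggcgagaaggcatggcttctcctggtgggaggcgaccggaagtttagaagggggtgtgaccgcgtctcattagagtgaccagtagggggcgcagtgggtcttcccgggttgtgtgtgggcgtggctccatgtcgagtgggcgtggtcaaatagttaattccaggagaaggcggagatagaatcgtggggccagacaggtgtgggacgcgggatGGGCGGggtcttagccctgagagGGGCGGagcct
Cd276: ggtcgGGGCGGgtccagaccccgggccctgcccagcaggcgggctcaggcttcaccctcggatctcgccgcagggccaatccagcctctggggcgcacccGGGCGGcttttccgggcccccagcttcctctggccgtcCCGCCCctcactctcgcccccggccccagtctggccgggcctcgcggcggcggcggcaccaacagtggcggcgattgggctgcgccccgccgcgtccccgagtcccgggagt

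The Cd274 window held 1 interferon regulatory factor core, at positions -175 to -168 from the start site, and 1 GC box. Lgals9 held 2 such cores, at -151 to -144 and -55 to -48, and no GC box. Nectin2 and Cd276 held no interferon core, with 2 and 3 GC boxes. RefSeq windows were found for 9 of the 10 genes, Pvr being the one without an entry. None of the 9 held a gamma-activated site, which 7.02% of all 32851 windows of this length held. The interferon core was found in the windows of Cd274, Pdcd1lg2, Lgals9, Tnfrsf14 (2 overlapping matches) and Cd200, against 21.3% of all windows, and a GC box in those of Cd274, Cd276, Cd47, Nectin2 and Cd200, against 32.7% of all windows. The Cd80 window held none of the 3 motifs. These are matches of letters only. Of the windows shown, those of Nectin2 and Cd276 lie inside the GENCODE gene spans, which end at 19750483 and 58555437. The outermost GENCODE start of each of these genes thus lies upstream of the RefSeq start site used here.

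Before the values, the libraries themselves are described. Their totals ran from 19409204 to 23472012 expected counts. The replicates were separate libraries, with a chi-square per degree of freedom of 5.33 to 7.17 between replicates of a line and of 26.44 to 41.35 between lines. No source says that A and B were separate cultures, so p-values measure only the spread between these libraries. Mean fragment length, read from the gap between transcript and effective length, was 271.77 to 277.32 bases in both parental libraries and B04 A, and 220.84 to 246.18 bases in B04 B and both B64 libraries. B64 and the parental group thus shared no fragment-length class, and a block for that class in their comparison rests on the 2 B04 libraries alone. Of 16 leukocyte markers, 13 were at or under 3 counts in every library, Ptprc (CD45) reached 0.01 TPM at most, and the list summed to 0.33 to 1.09 TPM. All 5 endothelial markers were at that floor. Erythroid markers summed to 0 to 2.45 TPM. Of 8 colon epithelial markers, 3 were at or under 3 counts in every library. Epcam and Cdh1 stayed at or under 0.06 TPM, Vil1 was at 0, and Krt8 stayed at or under 0.51 TPM. Lgals4 was at 0.57 to 1.31 TPM, and Cdx2 at 0.87 and 0.56 TPM in parental A and B and at 0 in B04 and B64. Krt18 and Krt20 were present, so that markers of the labeled tumor type were present only in part. The summed epithelial level was 46.62 and 48.76 TPM in B64 and between 23.21 and 26.02 TPM in the other 4 libraries. In RNA from many cells, fewer cells expressing a gene and less RNA per cell cannot be told apart.

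Among the 10 genes, Cd47 and Pvr had the highest mean levels. On the TPM scale, which corrects for transcript length and so allows levels of different genes to be compared, the mean over 6 libraries was 131 TPM for Cd47, 85.4 for Pvr, 57.2 for Lgals9, 36.9 for Nectin2, 12.3 for Cd276, 9.71 for Cd80, 2.71 for Tnfrsf14 and 2.35 for Cd274. Cd200 was at 0 to 0.09 TPM, from at most 2 counts in a library, and Pdcd1lg2 had no count in any library. Of those of the 10 that were detected, PD-L1 mRNA was thus among the scarcest, at 1.83 to 2.84 TPM against 109.12 to 146.77 TPM for Cd47. A count of 0 allows up to 3 counts in a library, or 0.128 to 0.155 CPM, and covers counting error only.

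**Figure D1:**
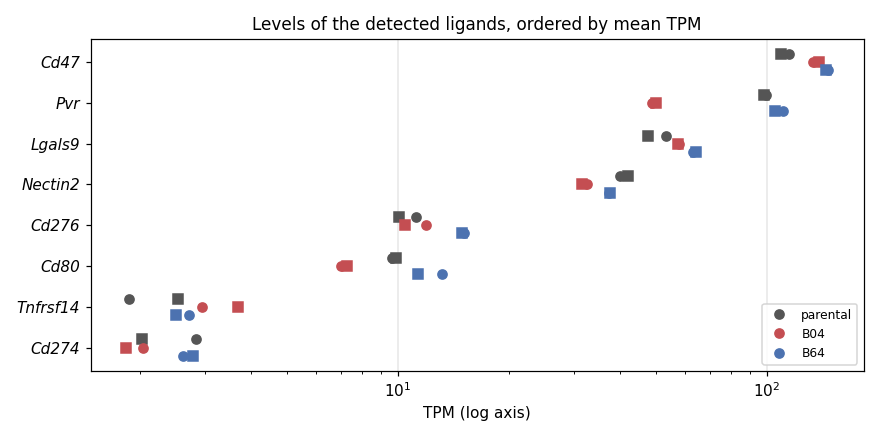
TPM on a log axis for the 8 ligand genes detected in every library, ordered by mean TPM, with a circle for replicate A and a square for replicate B of the parental (grey), B04 (red) and B64 (blue) lines. Cd47 stood above 109 TPM in every library, and Pvr was near 49 TPM in B04 against 98 TPM or more in the others.

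The order from Cd47 to Cd80 did not depend on how length was taken into account, whereas the lowest 2 detected genes exchanged places. Per kilobase of transcript, Cd274 came before Tnfrsf14, with mean normalized counts of 42.1 and 30.6 per kilobase. The weighted transcript length of Tnfrsf14 ranged from 485.4 to 828.2 bases among libraries, and a shorter length gives a higher TPM for the same count. Cd47 had the highest TPM of the 10 in each library, although its range over libraries (109.12 to 146.77 TPM) just overlapped with that of Pvr (48.77 to 110.42 TPM). Cd276 (10.08 to 15.11 TPM) and Cd80 (7.03 to 13.14 TPM) overlapped over the 6 libraries, as did Tnfrsf14 and Cd274, and so did Pvr and Lgals9 (47.47 to 64.4 TPM). In B04 this last order was turned, with Pvr at 49.3 ± 0.806 TPM and Lgals9 at 57.4 ± 0.219 TPM (mean ± SD, n = 2). In the parental line Pvr was at 98.9 ± 0.742 TPM and Lgals9 at 50.3 ± 4.0 TPM. Summed over all 10 genes, levels were 332.9 and 321.6 TPM in parental A and B, 296.2 and 300.4 TPM in B04 and 391.4 and 383.2 TPM in B64, 3 ranges that did not overlap.

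To compare lines, the expected counts of all genes were fitted together in DESeq2, and genes with an adjusted p (Benjamini-Hochberg) under 0.05 were called. SE is the standard error of a log2 fold change. Where edgeR is not named, an adjusted p is from DESeq2. Of the 10 genes, 8 had enough counts to be tested. In B04 against the parental line, 4 of the 8 were called, Cd47 as higher and Pvr, Nectin2 and Cd80 as lower, beside 24.1% of all 13218 genes tested (11.2% higher and 12.9% lower). In B64 against the parental line, 3 of the 8 were called, Cd47, Cd276 and Lgals9, all as higher, beside 16.3% of all genes (8.87% higher and 7.45% lower). In B64 against B04, 4 of the 8 were called, Pvr, Cd80, Cd276 and Nectin2, all as higher in B64, beside 24.3% of 12855 genes (13.1% higher and 11.1% lower). The median log2 fold change of the 8 genes was -0.19 in B04 and 0.32 in B64 against the parental line, and 0.36 in B64 against B04, while that of all genes tested was 0.002, -0.002 and 0.0. The comparisons share libraries and are not independent of one another.

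**Figure D2:**
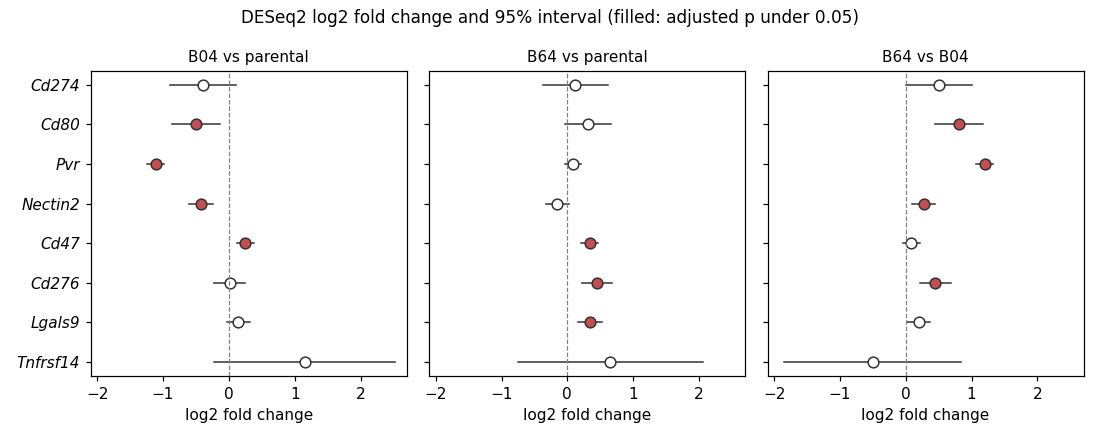
DESeq2 log2 fold change (point) with its 95% interval (bar) for the 8 tested ligand genes in each of the 3 comparisons, filled where the adjusted p was under 0.05. Pvr lay at -1.11 in B04 against the parental line and at 1.20 in B64 against B04, the points farthest from 0 among those filled.

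PVR, the high-affinity ligand of TIGIT, showed the change with the smallest adjusted p of the 10. Pvr, on the minus strand of chromosome 7 (19903578 to 19921160, GRCm38), had 4850.8 and 5093.4 normalized counts in parental A and B, 2297.5 and 2297.3 in B04 A and B, and 5391.5 and 5172.7 in B64 A and B. The B04 libraries were the lowest and did not overlap with either other line, and both B64 libraries lay above both parental libraries by a small margin. Pvr fell in B04 to 0.462 of its parental level, a log2 fold change of -1.11 (SE 0.07, 95% interval -1.24 to -0.99, adjusted p = 3.16e-62). In B64 its log2 fold change against the parental line was 0.09 (SE 0.06, 95% interval -0.04 to 0.21, adjusted p = 0.429), and the direct difference of B64 from B04 was 1.20 (SE 0.07, adjusted p = 2.87e-72). The differences were as large within libraries of like fragment length: B04 A against the parental libraries gave -1.11, and B64 against B04 B gave 1.20. The weighted length of Pvr transcripts was 2794.1 and 2835.0 bases in parental A and B, 2755.7 and 2718.0 in B04 A and B, and 2808.5 and 2795.2 in B64 A and B, close to the 2905 bases of its protein-coding transcript. A pseudogene, Gm16184, overlaps Pvr on the other strand and had at most 13 counts.

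Nectin-2, the second ligand of this receptor family, lies on the same chromosome (19716644 to 19750483, minus strand). Nectin2 had 1475.8 and 1610.5 normalized counts in parental A and B, 1181.1 and 1124.8 in B04 A and B, and 1401.1 and 1381.5 in B64 A and B. B04 was the lowest line without overlap, and the B64 libraries lay between the others. Nectin2 fell in B04 by 0.42 on the log2 scale (SE 0.09, adjusted p = 7.3e-05), to 0.747 of the parental level. In B64 the difference from the parental line was -0.15 (SE 0.09, 95% interval -0.33 to 0.03, adjusted p = 0.32). B64 was higher than B04 by 0.27 (SE 0.09, adjusted p = 0.0196), a call lost without B04 A (adjusted p = 0.0939), B04 B (0.222), B64 A (0.198) or B64 B (0.151) and when fragment-length class was blocked (0.31, adjusted p = 0.121).

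Both poliovirus receptor family ligands were thus lower in B04, though by unequal amounts. The ratio of Pvr to Nectin2 counts within a library, which no library scaling can alter, was 3.29 and 3.16 in the parental line, 1.95 and 2.04 in B04, and 3.85 and 3.74 in B64. The ratio was lowest in B04 and highest in B64, with no overlap between lines. Together Pvr and Nectin2 gave 139.4 and 140.5 TPM in the parental line, 81.3 and 81.4 TPM in B04 and 147.8 and 142.9 TPM in B64. Nectin-1, a ligand of CD96, went another way. Nectin1 had 180.3 and 158.1 normalized counts in parental A and B, 160.5 and 166.9 in B04 A and B, and 82.7 and 98.8 in B64 A and B. B64 was the lowest line, and the other lines overlapped. Nectin1 was lower in B64 than in the parental line by a log2 fold change of -0.90 (SE 0.26, adjusted p = 0.00535), a call lost without B64 A (adjusted p = 0.19) or parental A (0.197) and with the fragment-length block (-0.95, adjusted p = 0.665). In B04 it gave -0.05 (SE 0.25, adjusted p = 0.936). Nectin3, a ligand of TIGIT, had at most 0.9 normalized counts in a library. The count ratio of Cd47 to Pvr was 1.87 and 1.89 in B04 and 0.688 to 0.871 in the other 4 libraries.

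As Pvr and Nectin2 lie near each other, the genes around Pvr were read in the same fit, a description added after the values were seen. Of the tested genes overlapping the 500 kb on either side of Pvr, 18 in number, 0 were called as higher and 3 as lower in B04 than in the parental line, beside 11.2% and 12.9% of all genes tested, with a median log2 fold change of -0.04. The 3 were Nectin2 at -0.42 (SE 0.09), Mark4, a microtubule affinity-regulating kinase, at -0.50 (SE 0.11, adjusted p = 8.58e-05), and Clptm1 at -0.22 (SE 0.07, adjusted p = 0.00637). Genes lying among these were not called, such as Tomm40 at -0.13 (SE 0.08, adjusted p = 0.249) and Relb, an NF-κB subunit, at 0.18 (SE 0.15, adjusted p = 0.447). Trappc6a, also among them, was about as low as Nectin2, at -0.44 (SE 0.18, adjusted p = 0.0586). No other tested gene in the window was called, and none had a log2 fold change below the -0.53 of Klc3 (SE 0.30, adjusted p = 0.226).

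**Figure D3:**
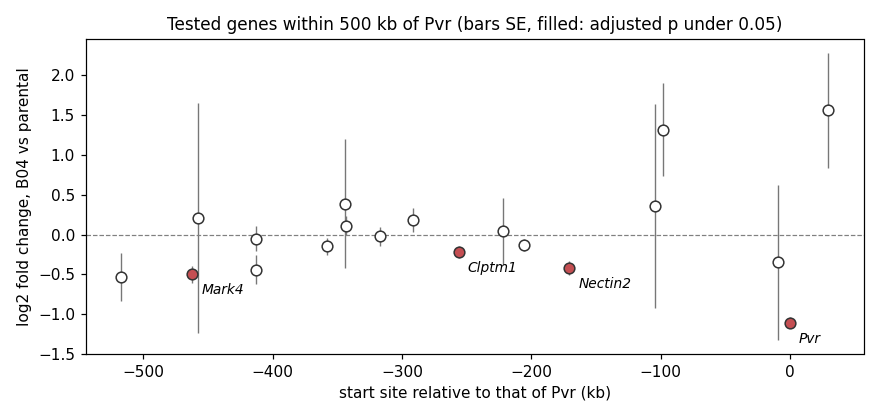
DESeq2 log2 fold change in B04 against the parental line for Pvr and the 18 tested genes overlapping the 500 kb on either side, against the distance of their start sites from that of Pvr in kb on the plus strand. Bars are SE, filled points have an adjusted p under 0.05, and Pvr at -1.11 lies below the 3 called neighbors at -0.50 to -0.22.

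CD80, the B7 ligand shared by CD28 and CTLA-4, differed between the resistant lines. Cd80 (chromosome 16, 38455561 to 38496335, plus strand) had 265.2 and 285.3 normalized counts in parental A and B, 190.6 and 198.5 in B04 A and B, and 367.0 and 317.5 in B64 A and B. B04 was the lowest line, B64 the highest, and no 2 lines overlapped. B64 was above B04 by 0.81 on the log2 scale (SE 0.19, 95% interval 0.45 to 1.18, adjusted p = 0.000142), a 1.76-fold difference that gave 0.78 against B04 B alone, the library of like fragment length, and missed the threshold without B64 A (adjusted p = 0.0503). Against the parental line, Cd80 was called as lower in B04 at -0.50 (SE 0.19, adjusted p = 0.0348), but leaving out any of the 6 libraries lost that call (adjusted p between 0.0834 and 0.264), as did the fragment-length block (-0.53, adjusted p = 0.226). In B64 its difference from the parental line was 0.31 (SE 0.18, 95% interval -0.04 to 0.67, adjusted p = 0.279). The related ligand Cd86 had no count in any library.

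PD-L1 mRNA did not pass the test in any comparison in DESeq2. Cd274 (chromosome 19, 29367455 to 29388095, plus strand) had 184.1 and 137.5 normalized counts in parental A and B, 129.5 and 115.0 in B04 A and B, and 167.6 and 180.8 in B64 A and B. The parental libraries were the farthest apart and enclosed both B64 libraries, and both B04 libraries lay below all others. The log2 fold change was -0.39 in B04 (SE 0.25, 95% interval -0.89 to 0.1, adjusted p = 0.29) and 0.12 in B64 (SE 0.25, 95% interval -0.37 to 0.61, adjusted p = 0.844). B64 against B04 gave 0.51 (SE 0.25, adjusted p = 0.139), for which edgeR's quasi-likelihood test gave an adjusted p of 0.0412. With 113 to 193 raw counts per library the 95% intervals reached from 0.54 to 1.07 of the parental level in B04 and from 0.773 to 1.52 in B64. An antisense gene, AC119228.1, overlaps Cd274, is not in the table, and could not be told apart from it without strand.

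The genes whose pattern over the 6 libraries was most like that of Cd274 were Eif2ak2, Akap2, Xpr1, Stam and Hivep2. They had the smallest root-mean-square difference of centered log2 normalized counts, from 0.0547 for Eif2ak2 to 0.082 for Hivep2, among 10463 genes with a mean of at least 50, where Cd274 itself had an SD of 0.254. Eif2ak2, which encodes the double-stranded RNA sensor PKR, had 2188.4 and 1808.8 normalized counts in parental A and B, 1703.7 and 1522.7 in B04 A and B, and 2224.5 and 2333.0 in B64 A and B. As for Cd274, parental A was above parental B, and both B04 libraries were lowest. With 6 libraries and so many genes, such likeness is a description only.

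CD47 rose in both resistant lines. Cd47 (chromosome 16, 49800533 to 49915010, plus strand) had 3746.2 and 3506.3 normalized counts in parental A and B, 4306.7 and 4337.2 in B04 A and B, and 4698.3 and 4469.3 in B64 A and B. Both parental libraries were lowest, and neither resistant line overlapped with them. The rise was 1.19-fold in B04 (log2 fold change 0.25, SE 0.07, adjusted p = 0.00107) and 1.26-fold in B64 (0.34, SE 0.07, adjusted p = 8.08e-06), both measured against the same parental libraries. Without parental B the call in B04 was lost (0.20, adjusted p = 0.0744), and with the fragment-length block both were (adjusted p = 0.0544 in B04 and 0.257 in B64, with log2 fold changes of 0.25 and 0.33). The lines differed from each other by 0.08 (SE 0.07, 95% interval -0.04 to 0.21, adjusted p = 0.408). Cd47 has 10 annotated transcripts of 1032 to 5250 bases, and its weighted length was 1961.5 and 1865.0 bases in parental A and B, 1974.7 and 1922.5 in B04 A and B, and 1917.2 and 1852.5 in B64 A and B, so that the parental line overlapped with both clones and the clones not with each other.

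B7-H3 and galectin-9 rose in B64. Cd276 (chromosome 9, 58524298 to 58555437, minus strand) had 719.3 and 678.1 normalized counts in parental A and B, 753.4 and 652.5 in B04 A and B, and 946.9 and 966.2 in B64 A and B. The B64 libraries were above all others, and B04 enclosed the parental values. Cd276 was higher in B64 than in the parental line by 0.45 (SE 0.12, adjusted p = 0.00161) and than in B04 by 0.44 (SE 0.12, adjusted p = 0.00137), while B04 and the parental line differed by 0.01 (SE 0.12, 95% interval -0.22 to 0.24, adjusted p = 0.971). The call against the parental line was lost without B64 A (adjusted p = 0.0601), B64 B (0.0896) or parental B (0.0801) and with the fragment-length block, where the log2 fold change was 0.66 (adjusted p = 0.122), and the call against B04 without B04 B (0.114) or B64 B (0.0676). Against B04 B, of like fragment length, the difference was 0.55. Gm10657 overlaps Cd276 on the other strand with at most 7.51 counts, and the expected counts of Cd276 were whole in only 1 library.

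Lgals9 (chromosome 11, 78962974 to 78984946, minus strand) had 1280.2 and 1194.3 normalized counts in parental A and B, 1363.5 and 1371.1 in B04 A and B, and 1550.6 and 1583.3 in B64 A and B. The lines followed one another without overlap, with the parental line lowest and B64 highest. The rise in B64 was 1.27-fold over the parental line (log2 fold change 0.34, SE 0.09, adjusted p = 0.00191). In B04 the difference was 0.14 (SE 0.09, 95% interval -0.03 to 0.32, adjusted p = 0.273), and B64 exceeded B04 by 0.20 (SE 0.09, adjusted p = 0.098, and 0.035 in edgeR). The call in B64 was lost without B64 A (adjusted p = 0.0601), B64 B (0.103) or parental B (0.105), and with the fragment-length block, where the log2 fold change was 0.33 (adjusted p = 0.678).

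HVEM was scarce and the remaining genes were not detected. Tnfrsf14 (chromosome 4, 154921933 to 154928563, minus strand) had 7.6 and 16.8 normalized counts in parental A and B, 31.0 and 23.4 in B04 A and B, and 24.9 and 13.7 in B64 A and B. The B04 libraries lay above the parental ones, and those of B64 overlapped with both. The log2 fold change was 1.15 in B04 (SE 0.70, 95% interval -0.22 to 2.53, adjusted p = 0.256) and 0.65 in B64 (SE 0.72, adjusted p = 0.655), from 8 to 34 raw counts per library. Cd200 (chromosome 16, 45382135 to 45409053, minus strand) had 2, 0, 0, 1, 0 and 2 raw counts and was at the floor, and Pdcd1lg2 (chromosome 19, 29410919 to 29471161, plus strand), next to Cd274, had none.

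**Figure D4:**
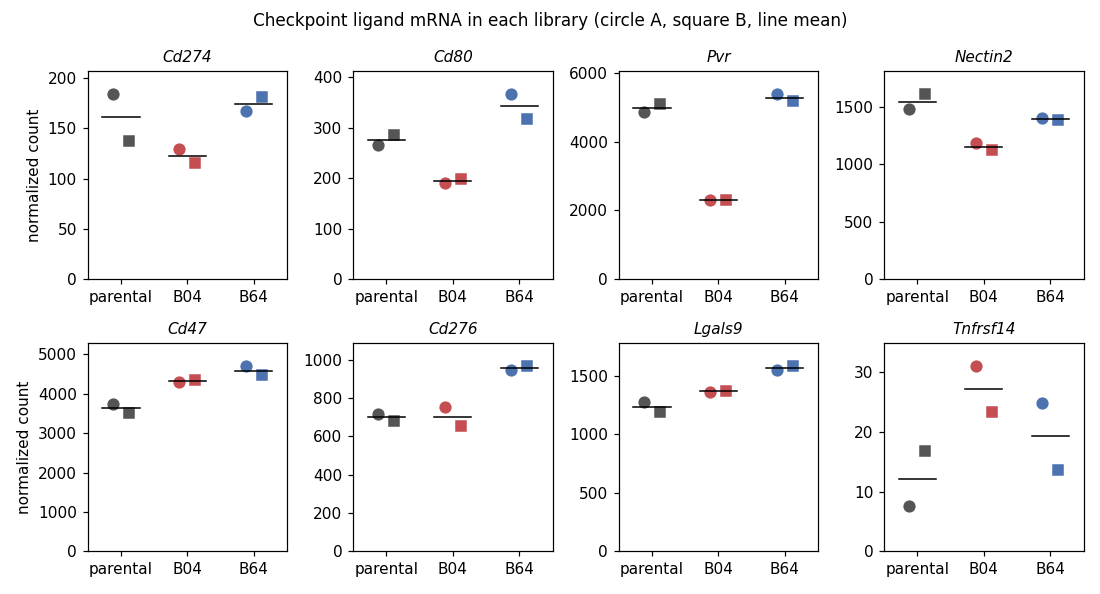
Normalized counts of the 8 tested ligand genes in each library, with axes from 0, circles for replicate A, squares for replicate B and a line at each mean. Pvr, Nectin2 and Cd80 were lowest in both B04 libraries, and Cd276 and Lgals9 were highest in both B64 libraries.

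Other genes of the same pathways were read from 6 lists of 93 genes, of which 89 were in the table and 51 were tested. In B04 against the parental line, 12 of the 51 were called (23.5%, beside 24.1% of all genes), 5 as higher and 7 as lower. In B64 against the parental line 13 were called (25.5%, beside 16.3%), 9 as higher and 4 as lower, and in B64 against B04 18 were called (35.3%, beside 24.3%), 13 as higher and 5 as lower. The median log2 fold changes were -0.05, 0.09 and 0.08. The count in B04 was 7 without B04 A and 5 without B04 B, parental A or parental B, and the count in B64 was 8 without B64 A. With the fragment-length block, the counts were 4, 3 and 15.

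Among 20 further inhibitory ligands, 11 were tested, and in B64 against the parental line 4 rose and 2 fell (54.5%, beside 16.3% of all genes). Vtcn1, which encodes the inhibitory B7 protein B7-H4, had 61.1 and 74.8 normalized counts in parental A and B, 65.7 and 55.0 in B04 A and B, and 276.4 and 240.8 in B64 A and B. Both B64 libraries stood far above the other 4, and the log2 fold change was 1.93 against the parental line (SE 0.27, adjusted p = 9.62e-11) and 2.10 against B04 (SE 0.28, adjusted p = 1.31e-12). The call against the parental line was kept under the fragment-length block (2.18, adjusted p = 0.0097) and in each fit that left out 1 library. The level of Vtcn1 in B64, 6.1 and 5.26 TPM, was above that of Cd274 there.

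Ligands of natural killer cell receptors also moved in B64. H2-T23, the class Ib molecule Qa-1 that engages NKG2A, had 191.7 and 163.7 normalized counts in parental A and B, 139.5 and 171.0 in B04 A and B, and 445.1 and 426.9 in B64 A and B. Clec2d, a ligand of the inhibitory receptor NKR-P1B, had 192.7 and 169.3 in parental A and B, 164.2 and 153.7 in B04 A and B, and 410.0 and 349.0 in B64 A and B. B64 stood above the overlapping values of the other lines for H2-T23, and above both lines for Clec2d. The rises over the parental line were 1.29 (SE 0.20, adjusted p = 1.69e-09) and 1.07 (SE 0.20, adjusted p = 2.24e-06), and those over B04 were 1.49 (SE 0.20, adjusted p = 1.58e-12) and 1.25 (SE 0.20, adjusted p = 9.68e-09). With the fragment-length block the rises over B04 kept their calls (adjusted p = 3.66e-05 and 0.000198) and those over the parental line did not (0.264 and 0.144), with log2 fold changes over the parental line of 1.0 and 1.16. Both belong to families of similar genes, so their counts are less certain, although the counts of both were whole numbers in all 6 libraries. H2-T23 was named by the study for B64, so that its rise is no independent evidence.

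A ligand of an activating receptor had fewer counts in both resistant lines, but a lower TPM only in B64. Of 9 listed ligands of the activating receptor NKG2D, only 5 were in the table, and Ulbp1 (MULT1) was the only one tested. Ulbp1 had 1693.3 and 1381.4 normalized counts in parental A and B, 1272.3 and 1150.2 in B04 A and B, and 747.6 and 837.9 in B64 A and B. In these counts B64 was lowest and the parental libraries highest, with no overlap. In TPM, both B04 libraries (43.99 and 36.83) lay within the parental range (33.53 to 45.53), and B64 was at 22.2 and 21.31. Its weighted transcript length ran from 1795.1 to 2311.4 bases among libraries. Ulbp1 fell by 0.95 in B64 (SE 0.12, adjusted p = 4.76e-14, 0.0182 with the fragment-length block) and by 0.34 in B04 (SE 0.12, adjusted p = 0.0155). The call in B04 was lost without B04 B (adjusted p = 0.268) or parental A (0.465), and with the block (-0.27, adjusted p = 0.31).

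The galectin-3 gene Lgals3, whose product binds LAG-3, was higher in B64, while a fall of its counts in B04 was not seen in TPM. It had 15959.6 and 17690.3 normalized counts in parental A and B, 14663.0 and 14575.0 in B04 A and B, and 22194.4 and 23282.2 in B64 A and B. It rose by 0.43 in B64 (SE 0.06, adjusted p = 8.11e-12, 0.0052 with the fragment-length block) and fell by 0.20 in B04 (SE 0.06, adjusted p = 0.00384), a call lost without B04 B (adjusted p = 0.062) or parental B (0.162) and with the block (-0.20, adjusted p = 0.0791). The direct difference of B64 from B04 was 0.64 (SE 0.06, adjusted p = 1.76e-25). In TPM, both B04 libraries (1149.86 and 1202.67) lay within the parental range (1148.12 to 1218.39), and B64 was at 1711.51 and 1813.15. The weighted transcript length of Lgals3 ran from 880.6 to 993.2 bases among libraries. In B04 the other inhibitory ligands called were Ceacam1, a TIM-3 ligand, at 0.65 (SE 0.22, adjusted p = 0.0141), Hmgb1, an alarmin, at 0.17 (SE 0.07, adjusted p = 0.0421) and Sema4a at -1.88 (SE 0.71, adjusted p = 0.035). With the fragment-length block none of them was called (adjusted p = 0.175, 0.0527 and 0.46). Each of these 3 calls was lost without parental A or parental B, that of Ceacam1 also without B04 A or B04 B (adjusted p up to 0.17), that of Hmgb1 also without B04 A (up to 0.461) and that of Sema4a also without B04 B, B64 A or B64 B (up to 0.382).

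The receptors of these ligands are genes of lymphocytes and myeloid cells, and most were not detected. Of 20 receptor genes, 13 were at the floor in every library, among them Pdcd1 (PD-1), Ctla4, Cd28, Icos, Cd226, Btla, Pvrig, Klrk1 and Klrc1 with no count at all. Of the 4 tested, 0 were called in B04, beside 24.1% of all genes, and 2 as higher in B64, beside 8.87% of all genes. Tigit, the most abundant of the 20, had 467.4 and 499.4 normalized counts in parental A and B, 455.1 and 488.6 in B04 A and B, and 746.4 and 746.5 in B64 A and B, or 34.71 to 54.01 TPM. B64 was above the other lines, which overlapped, by 0.63 over the parental line (SE 0.13, adjusted p = 3.1e-05, and 0.52 with the fragment-length block, adjusted p = 0.583) and by 0.66 over B04 (SE 0.13, adjusted p = 5.12e-06, and 0.61 with the block, adjusted p = 0.0122). Counts were thus assigned to the receptor gene of PVR and Nectin-2 in libraries where Ptprc was at 0 to 0.01 TPM and Cd3e, Cd3d, Cd8a and Ncr1 were at 0. Tigit lies on the minus strand of chromosome 16 (43648867 to 43664146), overlaps no other annotated gene, and its counts were whole numbers in all 6 libraries, with no fraction left by dividing reads among genes. The reads themselves were not analysed here, so whether they come from a Tigit transcript was not tested. The costimulatory receptor gene Tnfrsf9 (4-1BB) had 105.9 and 95.4 normalized counts in parental A and B, 86.6 and 73.3 in B04 A and B, and 231.1 and 250.2 in B64 A and B, a rise of 1.26 over the parental line (SE 0.25, adjusted p = 1.33e-05) that was 1.5 with the block (adjusted p = 0.138). Part of Tnfrsf9 overlaps Camta1 on the other strand.

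**Figure D5:**
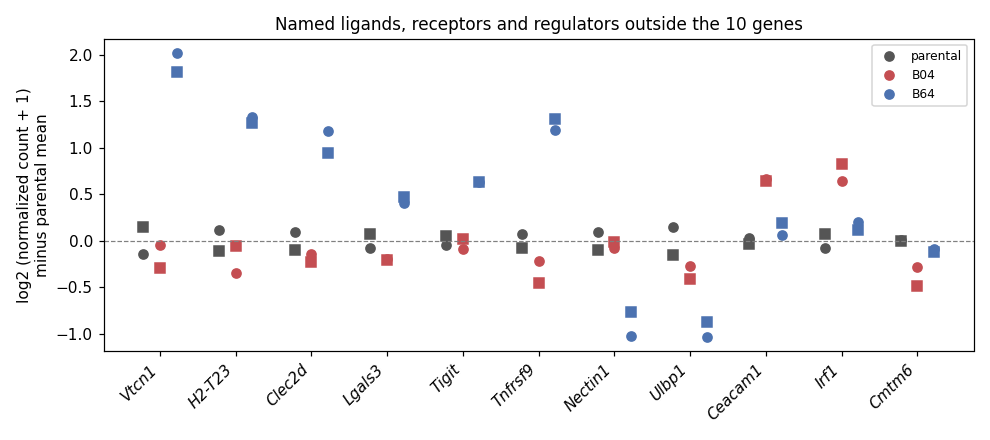
Differences of log2(normalized count + 1) from the parental mean in each library (circle A, square B) for 11 ligand, receptor and regulator genes outside the 10. Vtcn1, H2-T23, Clec2d and Tnfrsf9 were highest in both B64 libraries, Ulbp1 was lowest there, and Irf1 was highest in both B04 libraries.

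Of 20 genes of the interferon pathway and other regulators of PD-L1, all tested, 1 rose and 2 fell in B04. That was 15.0% of the list, beside 24.1% of all genes. Irf1, the factor that acts on the Cd274 promoter, had 337.7 and 376.0 normalized counts in parental A and B, 558.2 and 630.1 in B04 A and B, and 410.0 and 385.8 in B64 A and B. B04 was highest, and no 2 lines overlapped. Irf1 rose by 0.73 in B04 (SE 0.15, adjusted p = 1.17e-05, 0.0212 with the fragment-length block), and Irf9, a DNA-binding factor of the type I interferon response, fell by 0.40 (SE 0.10, adjusted p = 0.000706, and 0.088 without parental A).

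In B64 against the parental line, 2 of the 20 regulators rose and 0 fell. That was a smaller share of the list than the 16.3% of all genes called (8.87% higher and 7.45% lower). Stat2 was 0.51 higher (SE 0.12, adjusted p = 0.00038), a call lost without B64 A (adjusted p = 0.0887) or parental B (0.0727) and with the fragment-length block (0.50, adjusted p = 0.558). Irf1 in B64 gave 0.16 (adjusted p = 0.596). Stat2 is among the genes that the study names for B64. Directly compared, B64 was called above B04 for 6 regulators and below for 1 (35.0%, beside 24.3% of all genes). Stat2 was 0.75 higher (adjusted p = 1.24e-08), Irf9 0.61 higher (adjusted p = 5.21e-08) and Stat3 0.49 higher (adjusted p = 5.33e-05). Jak2, which relays the interferon-γ signal, was 0.30 higher (SE 0.09, adjusted p = 0.00808), a call lost without B04 B (0.238), B64 A (0.111) or B64 B (0.12). Irf1 gave -0.58 (SE 0.15, adjusted p = 0.000878, and 0.0904 without B04 B and 0.0644 without B64 B). The receptor subunit Ifngr1 was not called in B04 (-0.02, adjusted p = 0.965) or B64 (-0.24, adjusted p = 0.393).

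Genes that act on the ligand proteins after translation were all detected. Of 14, 4 were called in B04, 2 as higher and 2 as lower, and 2 in B64, 1 in each direction. These were 28.6% and 14.3% of the list, beside 24.1% and 16.3% of all genes. Cmtm6, which keeps PD-L1 from lysosomal degradation, was lower in B04 at -0.38 (SE 0.14, adjusted p = 0.0312), a call lost without any 1 of the 6 libraries (adjusted p up to 0.382), and gave -0.11 in B64 (adjusted p = 0.717). Its paralog Cmtm4 was higher in B04 at 0.26 (SE 0.08, adjusted p = 0.00463), a call lost without either library of B04 or of the parental line (adjusted p up to 0.112). Spop, the substrate adaptor of a ubiquitin ligase of PD-L1, was higher in B04 at 0.29 (SE 0.08, adjusted p = 0.000918, and 0.0799 without B04 B) and in B64 at 0.30 (SE 0.08, adjusted p = 0.00092, and 0.163 without B64 A). Cops5, a deubiquitinase subunit that stabilizes PD-L1, was lower at -0.32 (SE 0.09, adjusted p = 0.00172, 0.066 without B04 A and 0.151 without parental B) and at -0.36 (SE 0.09, adjusted p = 0.000478, and 0.0964 without parental B). With the fragment-length block, calls in B04 were lost for Cmtm6 (adjusted p = 0.444), Cmtm4 (0.0824) and Spop (0.0978) and kept for Cops5 (0.042). In B64 both calls were lost with the block, Spop at 0.22 (adjusted p = 0.905) and Cops5 at -0.40 (0.349). Qpctl, which modifies CD47 for SIRPα binding, gave -0.10 in B04 (adjusted p = 0.775) and 0.13 in B64 (adjusted p = 0.747). Of the genes named from these lists, H2-T23, Hmgb1, Irf9, Stat3, Cops5 and Qpctl overlap other annotated genes with counts of their own, so reads in the shared stretches are uncertain. Of 10 TNF family ligands, 8 were at the floor, and the one tested, Tnfsf9 (4-1BBL), was not called in any comparison.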

How the data were processed

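Per the study's methods, the authors used STAR for alignment to mm10 and RSEM for gene quantification. The annotation release and any strand setting are not given in the sources used here. The deposited expected counts are RSEM estimates that need not be whole, and the deposited TPM are scaled by the authors' RSEM run to effective length and library total. Transcript length and effective length, in bases, came from the same tables, and FPKM was not used.

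Identifiers were matched to GENCODE M21 (GRCm38), 53620 of 53801 (99.7%), and start-site windows came from RefSeq (GRCm38.p6). Groups and replicate letters came from the sample titles. Expected counts were rounded and fitted over all 6 libraries by group in DESeq2 (version 1.42.0, R 4.3.3), with a Wald test, independent filtering, no shrinkage and calls at a Benjamini-Hochberg adjusted p under 0.05. Normalized counts are expected counts divided by DESeq2 size factors, and intervals are 95% Wald intervals. Alternatives were edgeR's quasi-likelihood test (version 4.0.16), limma (version 3.58.1) on log2(TPM + 1) and log2(TPM + 0.1), TMM factors, filters, blocks for replicate letter or fragment-length class (above or below 260 bases), an effective-length offset and leaving out libraries.

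The members, the gene lists and the fragment-length block were chosen with earlier results of these data known. All 10 members are named, with up to 4 called genes of smallest adjusted p per other list and comparison, and Irf1, Jak2, Ifngr1, Cmtm6, Qpctl and Cd86 whatever their values. The genes near Pvr, the receptors and ligands given as undetected and the members of marker lists were named after their values were seen. The values of 1 listed gene are not reported here.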

Additional observations from a re-analysis of the deposited data

Results flagged for a closer look

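The effects of the resistant lines, each against the same parental libraries, differed from each other for 4 of the 8 tested ligand genes when compared directly as B64 against B04 in DESeq2, beside 24.3% of all 12855 genes tested. Pvr differed by 1.20 on the log2 scale (adjusted p = 2.87e-72), being -1.11 in B04 and 0.09 in B64 against the parental line. Cd80 differed by 0.81 (adjusted p = 0.000142), from -0.50 in B04 to 0.31 in B64. Cd276 differed by 0.44 (adjusted p = 0.00137), from 0.01 in B04 to 0.45 in B64. Nectin2 differed by 0.27 (adjusted p = 0.0196), from -0.42 in B04 to -0.15 in B64. Both B64 libraries were above both B04 libraries for each of the 4, but the calls came from these same libraries, so this adds no support. The same held for Cd274, Cd47 and Lgals9, which were not called.

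Without B64 A the adjusted p of Cd80 was 0.0503. That of Cd276 was 0.114 without B04 B and 0.0676 without B64 B. That of Nectin2 was 0.0939 without B04 A, 0.222 without B04 B, 0.198 without B64 A and 0.151 without B64 B. Pvr passed the threshold in every alternative run, with differences of 1.11 to 1.23.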

How the results depend on the processing

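Of 384 refits of a ligand gene's fold change, 346 kept direction and side of the threshold, 33 lost a call, 2 gained one and 3 changed sign. Only genes called in the main fit (4, 3 and 4 of the 8 tested in the 3 comparisons) could lose a call, so the 346 also count genes never called. Among called genes, refits without change ran from 6 of 16 for Cd80 in B04 to 16 of 16, as for Pvr in B04. Calls in B04 against the parental line went from 4 to 2 with fragment-length class as a block and to 2 to 3 when 1 library was left out. In B64 they went from 3 to 0 and to 1 to 3. In B64 against B04, leaving out 1 library gave 2 to 4. Counts over the 6 further lists went from 12 to 7 at an adjusted p under 0.01, to 4 with the fragment-length block, to 6 with limma on log2(TPM + 1) or log2(TPM + 0.1) and to 5 to 10 without 1 library in B04, and from 13 to 3, to 7 with either limma scale and to 8 to 13 in B64. Limma tests fewer genes, and a fit without 1 library assumes that the lone library of its line varies like the others. The sign changes were Cd276 in B04, at -0.10 without B04 A and -0.03 without parental B (-0.10 to 0.11 over all alternatives), and Cd274 in B64, at -0.08 without parental B (-0.08 to 0.34). The cause was not tested. Replicate letters were not taken to mark a shared source, since deviations from group means correlated at 0.2, 0.127 and -0.085 between lines over 10475 genes. With the replicate block, 3 ligand genes were called in each comparison, Cd80 (adjusted p = 0.0883) being lost in B04 and Nectin2 (0.0512) in B64 against B04, and the further lists gave 8, 13 and 17. SEs were highest for the ligand genes of fewest counts, Tnfrsf14 (8 to 34 raw counts per library, SE 0.70 in B04) and Cd274 (113 to 193, SE 0.25).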

Other observations

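Havcr2, which encodes the galectin-9 receptor TIM-3, was detected at a low level, with 14.3 and 15.9 normalized counts in parental A and B, at most 11.2 in B04 and 30.6 and 31.5 in B64 A and B, and its difference between B64 and the parental line was not called (log2 fold change 1.04, SE 0.65, adjusted p = 0.33). Galectin-1 (Lgals1) was the most abundant transcript named here, at 9569.26 to 10338.34 TPM over the 6 libraries, with the lines overlapping. Around Lgals9, 13 genes within 500 kb were tested in B64 against the parental line, of which 2 were higher and 2 lower (beside 8.87% and 7.45% of all genes), and around Cd276 2 of 9 were higher and 1 lower. The 2 tested genes near Cd47 were not called in any comparison. These genes were named after their values were seen.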
